A study of Drosophila melanogaster with 18 samples.

Results

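ZKSCAN3 expression in the Drosophila larval fat body was examined across all genes by setting the 2 male fat body libraries of cgGal4>HA::ZKSCAN3 larvae (ZKSCAN3) against the 2 of cgGal4>WT larvae (WT), which are 4 of the 18 samples of the series. The larvae were at the 3rd instar feeding stage (L3F), were reared at 25 °C and were male, and their gonads had been removed from the fat bodies. Both genotypes carried the cgGal4 driver, which is active in the fat body and is known to be active in hemocytes too, so the comparison is of the transgene on top of the driver. Each RNA sample was pooled from 10 fat bodies, and only 2 such preparations were made per genotype, so the spread between them stands for all the error given here. The fat body is bulk tissue, in which fewer cells of a type and less RNA per cell cannot be told apart. The labels name an HA tag, whereas the study's methods describe a 3xmyc tag for the fly transgene. In addition 4 further pairs of libraries were used: cgGal4>M1BP-RNAi;HA::ZKSCAN3 (M1BP RNAi + ZKSCAN3) and cgGal4>M1BP-RNAi (M1BP RNAi) males at L3F, and wild type females at the wandering stage (L3W) and at L3F.

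ZKSCAN3 is a human transcription factor with C2H2 zinc fingers, a SCAN domain and a KRAB domain, and in human cell lines it is known as a repressor of genes for autophagy and lysosome formation. In vertebrates a KRAB domain typically recruits the corepressor KAP1 to silence the genes nearby. In flies the zinc finger protein M1BP binds a promoter element called Motif 1 and keeps the autophagy programme off in feeding larvae. The fat body, which stores fat, glycogen and serum proteins much as a liver does, turns autophagy on when the larva stops feeding and wanders, under a pulse of the steroid ecdysone. The question put to these libraries was whether the human factor on its own changes gene expression in a fat body that has its normal M1BP.

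The count table held 17494 fly genes and no human gene, so the transgene itself was not measured. Total counts were 65861894 and 60708492 in ZKSCAN3, against 58792587 and 75828876 in WT. The 10 most abundant genes took 50.7% to 52.7% of the counts in these 4 libraries, so values are given as CPM, counts scaled to the library total with TMM factors, always in the order replicate 1 and replicate 2. The 10 fat body markers, among them the larval serum proteins, took 38.3% and 35.8% of the counts in ZKSCAN3, against 34.9% and 35.8% in WT, and none of them was at 0. M1BP had 13.2 and 15.1 CPM in ZKSCAN3, against 15.7 and 17 CPM in WT, a log2 fold change of −0.21 with a 95% interval of −0.53 to 0.12. The cytoskeletal gene Act5C had 791 and 918 CPM in ZKSCAN3, against 828 and 889 CPM in WT, and the ribosomal protein gene RpL32 had 554 and 670.1 CPM, against 598 and 676 CPM, so in both genes the groups overlapped. Markers of other cell types were present at low levels: the 20 testis markers summed to 16.1 and 23.2 CPM in ZKSCAN3, against 11.3 and 7.65 CPM in WT, the 15 midgut markers to 400.0 and 707 CPM, against 251 and 219 CPM, and the 11 salivary gland markers to 17.1 and 31.6 CPM, against 14.8 and 7.63 CPM. Low as they were, 18 of the 19 testis markers tested had a positive fold change, beside 5501 of all 11723 genes tested. Their median log2 fold change was 1.89, and 0.88 to 3.16 with 1 library left out. Of the 8 salivary gland markers tested 7 were positive, with a median of 1.08, and 0.69 to 1.73 with 1 library left out. Among all genes tested, too, fewer were at 0 counts in ZKSCAN3 (164 and 95) than in WT (245 and 522). The part of RNA from other tissues in the ZKSCAN3 values was not tested. The 11 hemocyte markers summed to 864 and 1165 CPM in ZKSCAN3, against 1160 and 1445 CPM in WT. Yet 8 of the 11 had a positive fold change, so the sum and most members went different ways. Their median log2 fold change was 0.26, and 0.013 without ZKSCAN3 replicate 1.

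A few promoter sequences carry what follows and are shown here as the 250 bases before the start of each gene, 5′ to 3′ on the strand of the gene, read from the RefSeq Release 6 (dm6) genome, with a motif in capitals. The first shows CG6845 (chr3L:146183-146432, plus strand) and Atg8a (chrX:10768339-10768588, minus strand), which hold Motif 1, searched as GGTCACACT on both strands. In CG6845 the motif stands at −31, and in Atg8a its reverse complement stands at −196.
CG6845: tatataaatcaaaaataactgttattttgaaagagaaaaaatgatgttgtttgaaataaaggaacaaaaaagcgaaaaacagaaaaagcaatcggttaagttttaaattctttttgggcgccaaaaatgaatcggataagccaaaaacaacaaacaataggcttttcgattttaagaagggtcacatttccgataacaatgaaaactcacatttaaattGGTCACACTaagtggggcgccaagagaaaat
Atg8a: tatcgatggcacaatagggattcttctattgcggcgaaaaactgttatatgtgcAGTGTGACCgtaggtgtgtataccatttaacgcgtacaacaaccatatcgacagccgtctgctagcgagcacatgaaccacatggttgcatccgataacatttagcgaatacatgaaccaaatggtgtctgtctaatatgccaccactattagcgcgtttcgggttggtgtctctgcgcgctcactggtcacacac
The next shows 2 small heat-shock genes of one cluster, Hsp26 (chr3L:9377428-9377677, minus strand) and Hsp23 (chr3L:9381632-9381881, plus strand), in which capitals mark GAANNTTC, the paired core of a heat shock element, which reads the same on both strands.
Hsp26: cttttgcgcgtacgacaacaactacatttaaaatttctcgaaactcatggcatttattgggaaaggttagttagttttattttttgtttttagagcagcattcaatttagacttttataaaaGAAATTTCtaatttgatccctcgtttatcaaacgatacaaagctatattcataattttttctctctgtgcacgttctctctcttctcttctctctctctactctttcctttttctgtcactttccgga
Hsp23: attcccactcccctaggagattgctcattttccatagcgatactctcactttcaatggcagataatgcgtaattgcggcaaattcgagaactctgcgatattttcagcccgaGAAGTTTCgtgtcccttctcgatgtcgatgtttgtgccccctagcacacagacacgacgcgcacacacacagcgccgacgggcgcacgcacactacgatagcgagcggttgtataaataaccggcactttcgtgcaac
The last is CG5853 (chr2L:9947649-9947898, minus strand), which has a ZKSCAN3 peak and neither of these motifs, so no base is in capitals.
CG5853: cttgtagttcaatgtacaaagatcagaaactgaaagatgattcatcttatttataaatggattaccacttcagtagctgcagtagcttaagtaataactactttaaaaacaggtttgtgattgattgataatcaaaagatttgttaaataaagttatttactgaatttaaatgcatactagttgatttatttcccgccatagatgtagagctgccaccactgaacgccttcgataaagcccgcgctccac
From 250 bases before to 50 after the start, Motif 1 was found in 867 of 17420 promoters (4.98%) and GAANNTTC in 1610 (9.24%). A match is a description of the letters and not a measured binding site.

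In the test across all genes ZKSCAN3 changed no gene past the threshold. edgeR's quasi-likelihood test, fitted to the 8 male libraries, called 0 of 11723 genes at a false discovery rate (FDR) of 0.001, a background of 0%, and 384 genes (3.28%) had an unadjusted p-value under 0.05. The lowest FDR was 0.194, for Hsp26. The common coefficient of variation between replicates was 0.462 in this fit, which holds the pairs with M1BP RNAi too. It was 0.289 in edgeR with only the 4 libraries of ZKSCAN3 and WT. The median half-width of the 95% interval was 0.789 log2 units, and 5473 genes (46.7%) had an interval that lay wholly within 1 log2 unit of no change, and for the other genes the interval held differences of 2-fold or more in at least 1 direction. DESeq2 fitted to only the 4 libraries of both genotypes called 31 of 9971 genes (0.311%), 22 higher (0.221%) and 9 lower (0.0903%) in ZKSCAN3. With 1 library left out it called 54 genes without ZKSCAN3 replicate 1, 791 without ZKSCAN3 replicate 2, and 25 or 11 when WT replicate 1 or WT replicate 2 was left out, and the genes called in each of these 4 fits were Fbp1, Hsp23, Gr64d and Gr64e. In 2252 genes (19.2%) both ZKSCAN3 libraries lay above both WT libraries and in 2666 (22.7%) below them, and these shares are the background against which the groups of genes are set.

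**Figure D1:**
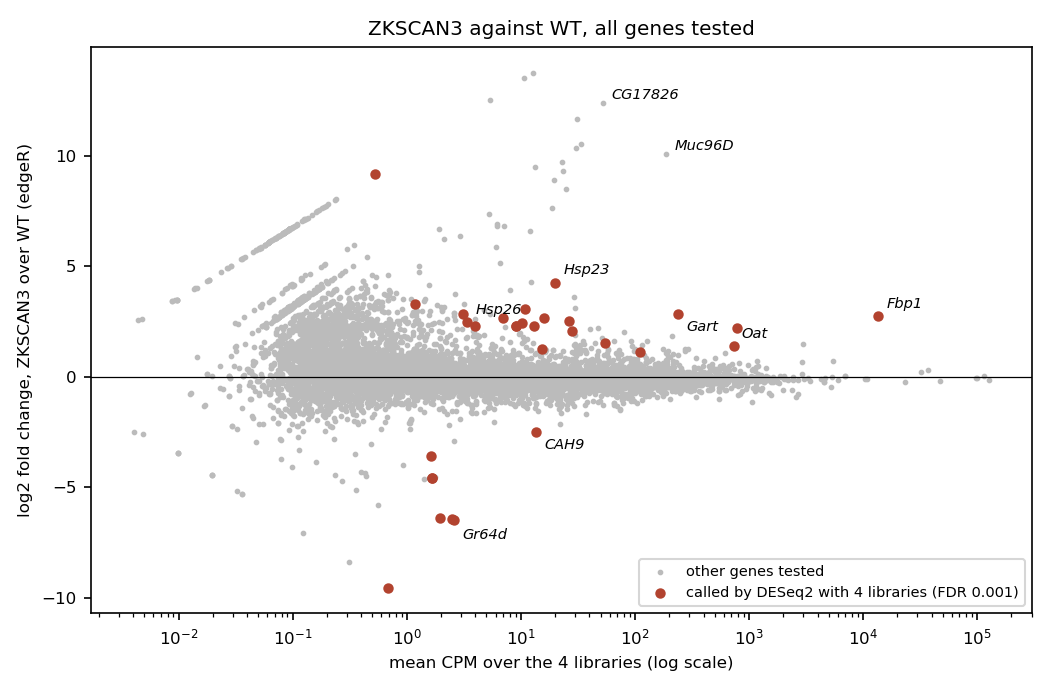
Each point is 1 of the 11723 genes tested, with the mean CPM over ZKSCAN3 and WT on a log axis and the log2 fold change (ZKSCAN3 over WT, edgeR) on the other axis. Red points are the genes called by DESeq2 with the 4 libraries at FDR 0.001. Most genes lie near 0, genes that were high in ZKSCAN3 replicate 1 alone, such as Muc96D and CG17826, lie far above it, and the called genes lie mainly above 0.

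Small heat-shock proteins, chaperones that hold unfolding proteins in solution and that in fly larvae are also induced by ecdysone, were higher in ZKSCAN3. Hsp26 (chr3L:9376418-9377427, minus strand) had 4.77 and 6.69 CPM in ZKSCAN3, against 1.12 and 0.958 CPM in WT. Both ZKSCAN3 libraries were above both WT libraries, the mean was 5.51-fold that of WT, and the log2 fold change was 2.46 ± 0.21 (SE), with an FDR of 0.194 by edgeR and of 1.48e-07 by DESeq2 with the 4 libraries. Hsp23 (chr3L:9381882-9382765, plus strand) had 60.4 and 15.9 CPM in ZKSCAN3, against 2.09 and 1.92 CPM in WT, so the size of the difference depended on the ZKSCAN3 library. Hsp27, the neighbouring gene of the cluster, had 40.4 and 14.7 CPM in ZKSCAN3, against 5.88 and 2.84 CPM in WT, and was high in the same library. DESeq2 with the 4 libraries called all 3 genes, and edgeR gave Hsp23 and Hsp27 an FDR of 0.932. The inducible Hsp70 relative Hsp68 had 69.5 and 35.6 CPM in ZKSCAN3, against 12.7 and 24.8 CPM in WT, whereas Hsp70Bb had 27.9 and 0.269 CPM, against 0.0590 and 0.179 CPM, and was high in ZKSCAN3 replicate 1 alone. Of the 17 heat shock genes tested, edgeR called 0 and 14 had a positive fold change. Without overlap 10 of the 17 (58.8%) lay above WT, beside 19.2% of all genes. The list had a median log2 fold change of 0.74 against −0.02 over all genes. Its median log2 ratio to the WT mean was 0.31 in each ZKSCAN3 library. The median fold change was 1.41 without WT replicate 2, and the summed level of the list was 1062 and 1127 CPM in ZKSCAN3, against 409 and 1034 CPM in WT, so by this sum WT replicate 2 stood near the ZKSCAN3 libraries. The letters GAANNTTC were found in 11 of their 17 promoters, with 1 match each in Hsp26 and Hsp23 as shown above, 2 to 4 in the Hsp70 genes and Hsp68, and 0 in Hsp27.

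**Figure D2:**
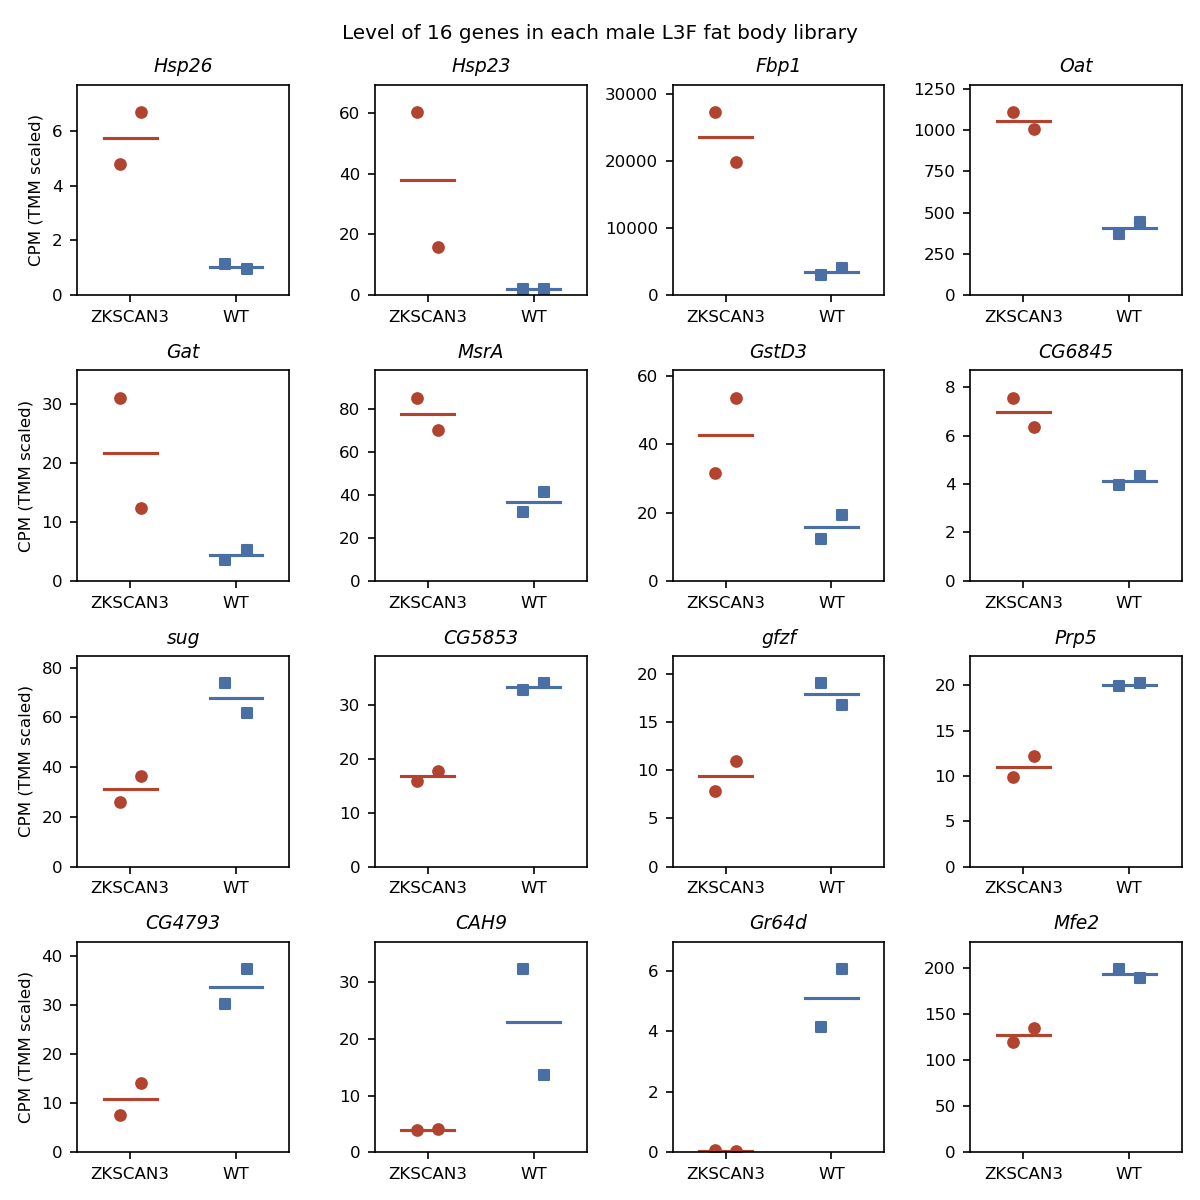
Each panel shows 1 gene, with CPM on its own axis from 0, a marker for each library (red circles for ZKSCAN3, blue squares for WT, replicate 1 left) and a line at the mean of each group. In the upper 8 genes both ZKSCAN3 libraries lie above both WT libraries, and in the lower 8, such as sug, CG5853 and Gr64d, below them.

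Several genes of the ecdysone response and some of the fat body were higher in both ZKSCAN3 libraries too, while the fat body markers as a list were not. Of these 10 markers 6 were positive, with a median log2 fold change of 0.03. Without overlap 3 lay above and 2 below WT, beside 19.2% and 22.7% of all genes. Fbp1 (chr3L:14094589-14098053, minus strand), the receptor by which the fat body takes larval serum proteins back up before metamorphosis and a target of ecdysone, had 27289 and 19827 CPM in ZKSCAN3, against 3017 and 3990 CPM in WT, a 6.72-fold higher mean. The libraries of each group stood close together beside that gap, and DESeq2 with the 4 libraries gave an FDR of 3.85e-20. edgeR with the 8 male libraries gave an FDR of 0.932 and a log2 fold change of 2.75 with a 95% interval of −0.60 to 6.10. With only the 4 libraries edgeR called 0 genes at FDR 0.05, so Fbp1 was not called there either. In M1BP RNAi + ZKSCAN3 the gene had 16918 and 385 CPM. Why both tests differ was not tested. Fbp2, another abundant fat body protein gene, had 5626 and 3200 CPM in ZKSCAN3, against 1483 and 1678 CPM in WT. Oat, an ornithine aminotransferase of mitochondria, had 1111 and 1005 CPM in ZKSCAN3, against 369 and 445 CPM in WT, and the values within each group were close. MsrA, the ecdysone-induced methionine sulfoxide reductase, had 85.3 and 70.4 CPM in ZKSCAN3, against 32.3 and 41.4 CPM in WT. Cth, a cystathionine lyase, had 711 and 598 CPM in ZKSCAN3, against 327 and 391 CPM in WT, and the early ecdysone gene Eip78C had 2.60 and 0.634 CPM, against 0.177 and 0.211 CPM, mostly from replicate 1. Of the 17 ecdysone response genes tested 13 had a positive fold change and 0 were called by edgeR. Without overlap 8 (47.1%) lay above WT and 2 (11.8%) below, beside 19.2% and 22.7% of all genes. The median of the list was 0.39, and it was 0.17 without ZKSCAN3 replicate 1 and 0.73 without ZKSCAN3 replicate 2.

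The detoxification genes GstD3 and GstD9, which code for glutathione transferases, were higher without overlap. GstD3 had 31.7 and 53.7 CPM in ZKSCAN3, against 12.4 and 19.3 CPM in WT, and GstD9 had 26.3 and 18.3 CPM, against 10.9 and 14.6 CPM. The group as a whole was less uniform, since 22 of its 37 genes had a positive fold change. Without overlap 8 of the 37 lay above WT and 6 below, beside 19.2% and 22.7% of all genes. The median of the group was 0.12, or 0.16 and −0.03 without ZKSCAN3 replicate 1 and without ZKSCAN3 replicate 2, and −0.08 without WT replicate 1. Gat, a transporter of the neurotransmitter GABA, had 31 and 12.4 CPM in ZKSCAN3, against 3.56 and 5.16 CPM in WT, with the larger value in replicate 1. CRMP, a dihydropyrimidinase relative, had 10.9 and 5.69 CPM in ZKSCAN3, against 2.46 and 3.52 CPM in WT. The named genes with the most even replicates were smaller in fold: Pino had 134 and 129 CPM in ZKSCAN3, against 86.1 and 90.3 CPM in WT, a 1.49-fold higher mean, and CG6845 had 7.56 and 6.36 CPM, against 3.96 and 4.32 CPM, 1.68-fold higher. CG6845, whose promoter is printed above, was the only one of the 12 higher genes with the smallest p-values that held Motif 1, and 7 of the 12 had a ZKSCAN3 peak at the promoter. Of all tested promoters 7.25% held Motif 1 and 63.7% had such a peak. Peaks were more common at higher levels. With a mean of at least 5 CPM, 5024 genes had a ZKSCAN3 peak, 172 only a ZKSCAN4 peak and 887 neither. Each of the 12 higher genes but Hsp26 had an FDR of 0.932 by edgeR.

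The remaining genes that DESeq2 called higher were of mixed function. Ama, a secreted adhesion protein, had 65.7 and 23.4 CPM in ZKSCAN3, against 6.63 and 9.06 CPM in WT, CG8112, an acyltransferase relative, had 31.8 and 6.86 CPM, against 2.24 and 2.42 CPM, and the glucuronosyltransferase gene Ugt36D1 had 56 and 34.3 CPM, against 8.27 and 13.2 CPM. In these 3 genes replicate 1 was the higher ZKSCAN3 library. Serine proteases of the larval gut went the other way between replicates: Jon65Aiii had 133 and 169 CPM in ZKSCAN3, against 73.9 and 66.5 CPM in WT, and yip7 had 62.2 and 98.8 CPM, against 26 and 30.4 CPM. Jon65Aiii is itself one of the midgut markers whose sum was given above, and of the 15 tested markers 10 had a positive fold change, with a median of 1.11 that was 0.10 without ZKSCAN3 replicate 1 and 0.38 without ZKSCAN3 replicate 2. The part of midgut RNA in these values was not tested.

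ZKSCAN3 replicate 1 also held a set of transcripts that the other 3 libraries nearly lacked. Muc96D, a mucin gene, had 753 and 0.461 CPM in ZKSCAN3, against 0.276 and 0.422 CPM in WT. Peritrophin-15a, which codes for a protein of the gut lining, had 93.2 and 0.173 CPM in ZKSCAN3, against 0.118 and 0.0325 CPM in WT, and CG17826 had 210.1 and 0 CPM, against 0.0394 and 0 CPM. The mucin gene Muc26B and CG7017, CG12934, CG34282 and CG5084 behaved alike, with 78.8 to 135 CPM in ZKSCAN3 replicate 1 and at most 0.404 CPM in replicate 2. These are the 8 genes with the widest gap between both ZKSCAN3 libraries, and their fold changes rest on 1 library. Without it the log2 fold change of CG17826 was −3.51 and that of CG7017 was −0.27. CG7715 and Cda9, a chitin deacetylase relative, which were among the 12 higher genes with the smallest p-values, shared the pattern in part: CG7715 had 53 and 0.576 CPM in ZKSCAN3, against 0.0787 and 0 CPM in WT, and Cda9 had 20.3 and 0.653 CPM, against 0.0787 and 0.0487 CPM.

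Among the lower genes, sug (chr2R:12924567-12930644, plus strand) had the smallest p-value. It codes for Sugarbabe, a zinc finger factor induced by dietary sugar that drives fat synthesis genes, and had 25.9 and 36.5 CPM in ZKSCAN3, against 73.7 and 61.6 CPM in WT, a log2 fold change of −1.12 with a 95% interval of −1.59 to −0.65 and an FDR of 0.932 by edgeR. CG5853, an ABC transporter gene, had 16 and 17.7 CPM in ZKSCAN3, against 32.7 and 34 CPM in WT, with replicates so close that the means differed by 1.98-fold at little spread. CG4619 overlaps it on the opposite strand and had 16.7 and 20.3 CPM in ZKSCAN3, against 33.7 and 34 CPM in WT, and since the counting did not use strand, the reads of both genes cannot be told apart. Prp5, an RNA helicase of the spliceosome, had 9.84 and 12.2 CPM in ZKSCAN3, against 19.9 and 20.2 CPM in WT. Mfe2, a peroxisomal enzyme of fatty acid oxidation, had 119 and 135 CPM in ZKSCAN3, against 198 and 189 CPM in WT. gfzf, which codes for a nuclear zinc finger protein with a glutathione transferase domain that is known as a partner of M1BP, had 7.85 and 11 CPM in ZKSCAN3, against 19 and 16.8 CPM in WT. plum, of the immunoglobulin superfamily, had 4.31 and 5.52 CPM in ZKSCAN3, against 9.33 and 11.2 CPM in WT, and CG33120 had 94 and 85.4 CPM, against 159 and 137 CPM. CG4793, a serine protease homologue, had 7.60 and 14.1 CPM in ZKSCAN3, against 30.2 and 37.4 CPM in WT, and the carbonic anhydrase gene CAH9 had 3.89 and 4.19 CPM, against 32.3 and 13.6 CPM, where the WT libraries differed by more than the ZKSCAN3 libraries. CG13377 and the antisense RNA asRNA:CR43906 overlap, and had 4.44 and 7.03 CPM and 4.47 and 7.92 CPM in ZKSCAN3, against 13 and 13.3 CPM and 16.7 and 16.5 CPM in WT. Of the 12 lower genes with the smallest p-values 5 had a ZKSCAN3 peak at the promoter and 0 held Motif 1, beside 63.7% and 7.25% of tested promoters. For each of the 12 edgeR gave an FDR of 0.932.

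The Gr64 cluster, which codes for sugar taste receptors, was far lower in ZKSCAN3 than in WT. Gr64d (chr3L:4032062-4035703, plus strand) had 0.0707 and 0.0384 CPM in ZKSCAN3, against 4.15 and 6.06 CPM in WT, a mean 93.5-fold lower in ZKSCAN3. Gr64f had 0.0884 and 0 CPM in ZKSCAN3, against 3.19 and 4.55 CPM in WT, Gr64b and Gr64c shared exons and identical counts of 0.0884 and 0.173 CPM, against 2.64 and 3.75 CPM, and Gr64e overlapped Gr64d. asRNA:CR45042, antisense to Gr64d and Gr64e, had 0 counts in both ZKSCAN3 libraries, against 1.24 and 1.51 CPM in WT, at least 50.2-fold lower on a floor of 3 counts over the group. These genes were as low in the libraries that carry M1BP RNAi, with 0.0278 and 0 CPM of Gr64d in M1BP RNAi + ZKSCAN3 and 0.0454 and 0 CPM in M1BP RNAi, and in the females, with 0 and 0 counts at L3W and 4 and 0 counts at L3F. Among the 12 libraries WT males were therefore the only group with more than 4 counts of Gr64d, and the comparison with WT cannot be told apart from what sets those 2 libraries apart from all others. The eye colour gene white (w), whose mini copy marks fly transgenes of this kind, had 43 and 130.2 CPM in ZKSCAN3, against 134 and 179 CPM in WT, and 2 and 0 counts at L3W, against 0 and 5 counts at L3F, in the females. Rab3, a small GTPase of synaptic vesicles, had 0.194 and 0.307 CPM in ZKSCAN3, against 4.53 and 1.46 CPM in WT, and Crz, a neuropeptide gene that DESeq2 called lower, had 0 and 0 CPM, against 8.42 and 0 CPM, all from 1 library.

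The autophagy genes are the targets that ZKSCAN3 is best known for, and in ZKSCAN3 fat bodies they differed little from WT. All 20 Atg genes were tested, edgeR called 0 and DESeq2 called 0, and 13 had a positive fold change and 7 a negative one. Without overlap 4 of the 20 lay above WT and 1 below, beside 19.2% and 22.7% of all genes. The median log2 fold change of the 20 was 0.08. Atg1, the kinase that starts autophagy, had 47.6 and 23.8 CPM in ZKSCAN3, against 20.3 and 21.3 CPM in WT. Atg7, the activating enzyme of the conjugation steps, had 23.4 and 12 CPM in ZKSCAN3, against 11.9 and 11 CPM in WT, and Atg18b, which binds phosphoinositides on the growing membrane, had 38.1 and 26.1 CPM, against 16.8 and 21.9 CPM. In these genes replicate 1 was the higher ZKSCAN3 library. Replicate 2 lay close to WT in Atg1 and Atg7 but above both WT libraries in Atg18b, whose log2 fold change without replicate 1 was 0.43. Atg8a, the ubiquitin-like protein that coats autophagosomes and whose promoter with Motif 1 is printed above, had 178 and 119 CPM in ZKSCAN3, against 135 and 139 CPM in WT, so WT lay between both ZKSCAN3 libraries. Atg2 had 53.7 and 42.5 CPM in ZKSCAN3, against 43.7 and 46.7 CPM in WT, and Atg6 had 7.48 and 7.36 CPM, against 7.38 and 8.18 CPM. The interval of Atg6 was −0.41 to 0.27 and that of Atg8a −0.54 to 0.77 log2 units, and the 19 Atg genes other than Atg8b, which had no more than 3 counts in any ZKSCAN3 or WT library, had fold changes between −0.13 and 0.78. The median of the list was −0.06 without ZKSCAN3 replicate 1 and 0.26 without ZKSCAN3 replicate 2. Genes of autophagosome fusion and the lysosome had a median of 0.09, with 17 of 26 positive, and of −0.07 without ZKSCAN3 replicate 1. CtsL1, a cathepsin of the lysosome, had 107 and 110.3 CPM in ZKSCAN3, against 165 and 165 CPM in WT, and the vesicle tethering gene lt had 29.8 and 21.6 CPM, against 19.1 and 18.2 CPM. The vacuolar proton pump had a median of −0.07 over 25 genes and the insulin and TOR pathway a median of −0.05 over 28.

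Genes of oxidative phosphorylation and glycolysis had lower medians in ZKSCAN3 replicate 1 than in WT and lay closer to WT in replicate 2. Of 81 tested genes of oxidative phosphorylation 68 had a negative fold change. Without overlap 21 of the 81 (25.9%) lay below WT, near the 22.7% of all genes, and 7 (8.64%) above, beside 19.2%. The median fold change of these 81 genes was −0.40, and −0.02 without ZKSCAN3 replicate 1. Their median log2 ratio to the WT mean was −0.92 in ZKSCAN3 replicate 1 and −0.01 in replicate 2. The 72 mitochondrial ribosomal protein genes had medians of −0.54 and 0.02 in the same libraries, and 67 of them had a negative fold change. In glycolysis 12 of 13 genes had a negative fold change. Without overlap 8 of these 13 lay below WT and 0 above, beside 22.7% and 19.2% of all genes. PyK, pyruvate kinase, had 124 and 348 CPM in ZKSCAN3, against 441 and 458 CPM in WT, and Pfk, the enzyme that commits sugar to glycolysis, had 42.7 and 67.1 CPM, against 74.8 and 79.6 CPM. Desat1, a fatty acid desaturase, had 958 and 1306 CPM in ZKSCAN3, against 1924 and 1856 CPM in WT. Among 19 fat synthesis and breakdown genes 9 lay without overlap below WT and 0 above, beside 22.7% and 19.2% of all genes. Agpat3, of phospholipid and fat synthesis, had 129 and 119.6 CPM in ZKSCAN3, against 184 and 160.0 CPM in WT, with close replicates. DNA replication genes, active in the endocycles of growing fat body cells, had a median of −0.45, which was −0.17 without ZKSCAN3 replicate 1 and −1.002 without ZKSCAN3 replicate 2, with PCNA at 2.21 and 5.63 CPM in ZKSCAN3, against 7.79 and 8.22 CPM in WT, and Mcm5 at 1.08 and 3.11 CPM, against 4.96 and 4.55 CPM. Without overlap 13 of the 21 replication genes tested lay below WT and 0 above, beside the same shares of all genes. Cytoplasmic ribosomal protein genes had a median of −0.08 over 87 genes. In each of these lists edgeR called 0 genes and DESeq2 with the 4 libraries called 0.

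Of 15 M1BP and other promoter or insulator factors, 13 had a negative fold change and 8 lay without overlap below WT, 53.3% beside the 22.7% of all genes. Their median was −0.16, or −0.07 without ZKSCAN3 replicate 1, and the sizes were small apart from gfzf: Chro, a chromodomain protein of the interbands, had 15.1 and 24.5 CPM in ZKSCAN3, against 27.1 and 28 CPM in WT, and its partner pzg had 22.1 and 24.2 CPM, against 30.9 and 26.8 CPM. The 11 fly relatives of KRAB corepressor components, such as HP1 proteins and histone methyltransferases, had a median of −0.08. Immune peptide genes had a median of 0.58 over 16 genes, which was 0.92 without ZKSCAN3 replicate 1 and −0.97 without replicate 2. The antifungal peptide gene Drs had 2.53 and 1.81 CPM in ZKSCAN3, against 0.394 and 0.162 CPM in WT, and was higher in both libraries.

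**Figure D3:**
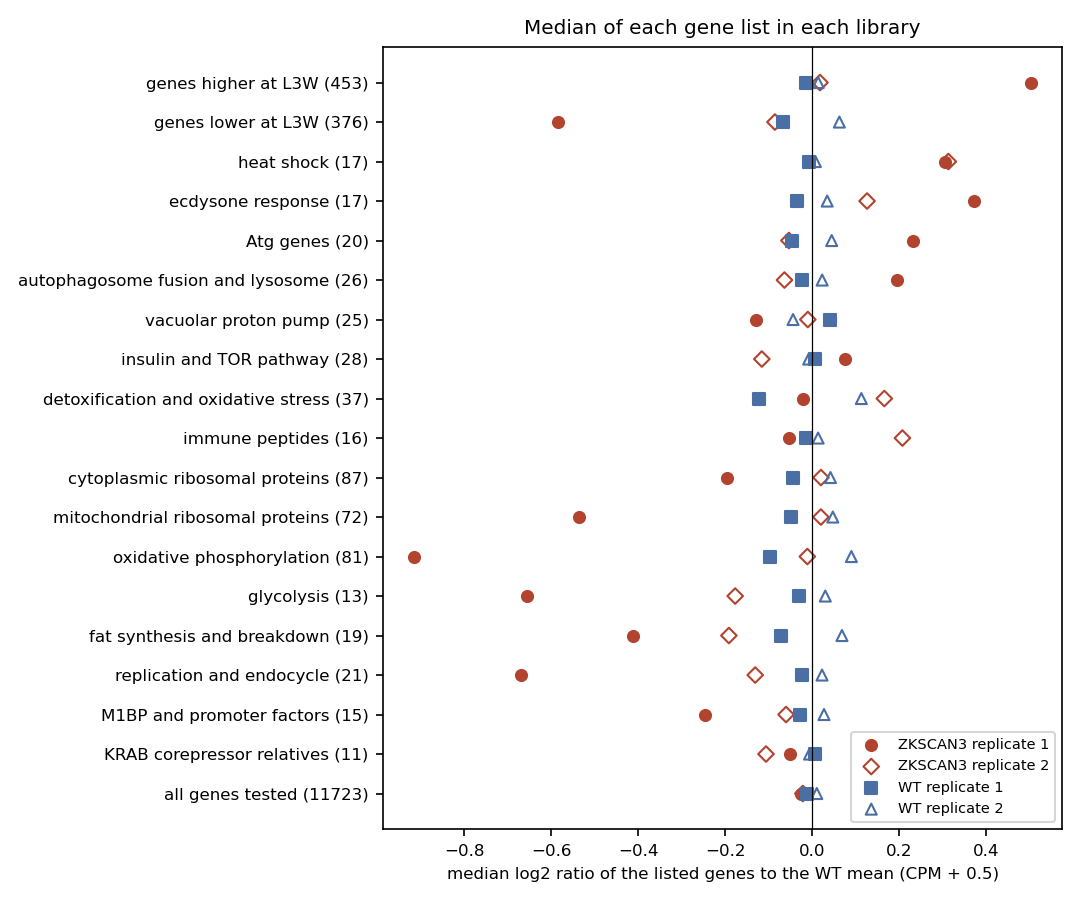
For each gene list the points give the median over its tested genes of the log2 ratio of a library to the WT mean (CPM with 0.5 added), with 1 point per ZKSCAN3 and WT library and the number of tested genes in parentheses. ZKSCAN3 replicate 1 lies furthest from 0 in oxidative phosphorylation, replication, glycolysis and the lists of genes that differ at L3W, where replicate 2 lies closer to the WT libraries.

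The females gave a separate reading of developmental stage. At L3W 458 of 10720 genes (4.27%) were higher than at L3F and 377 (3.52%) lower, by edgeR at FDR 0.001. Of the higher genes 453 were tested in ZKSCAN3 against WT, and their median log2 ratio to the WT mean was 0.50 in ZKSCAN3 replicate 1 and 0.018 in replicate 2, beside −0.014 and 0.014 in the WT libraries. Of the lower genes 376 were tested, with medians of −0.59 and −0.085 in ZKSCAN3, against −0.066 and 0.063 in WT. Both ZKSCAN3 libraries lay above both WT libraries in 38.6% of the L3W-higher genes, beside 19.2% of all genes, and below them in 44.4% of the L3W-lower genes, beside 22.7%. Of the 22 genes that DESeq2 called higher in ZKSCAN3, 20 had a value in the females, 19 of these were higher at L3W and 11 were called there. Hsp23 differed by 9.35 log2 units between L3W and L3F, CG8112 by 5.46, Ugt36D1 by 5.38, Fbp1 by 3.35 and Atg1 by 3.72. The exact age of the larvae was not recorded in the labels, and its part in the ZKSCAN3 values was not tested. GstD3, Pino and GstD9 had −1.36, −0.47 and −3.29 log2 units at L3W and were higher in ZKSCAN3 than in WT. CG5853 was 3.08 log2 units higher at L3W and lower in ZKSCAN3, and CG33120 was 1.14 higher and also lower in ZKSCAN3. These genes were named by their ZKSCAN3 values. Of the L3W-lower genes 4.79% lay above WT without overlap, and of the L3W-higher genes 8.83% lay below.

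M1BP RNAi + ZKSCAN3 against M1BP RNAi measures the same transgene in 4 libraries that share none with ZKSCAN3 against WT. Here edgeR called 0 of 10796 genes at FDR 0.001, with 1339 at an unadjusted p-value under 0.05, and DESeq2 with those 4 libraries called 173. Of the 22 genes that DESeq2 called higher in ZKSCAN3, 21 had a value there and 20 of these had a negative fold change, that is, lower values with the transgene. Hsp26 had 10.1 and 10.4 CPM in M1BP RNAi + ZKSCAN3, against 28 and 25.6 CPM in M1BP RNAi, Gat had 12.2 and 5.38 CPM, against 66.2 and 76 CPM, and MsrA had 25.6 and 17.4 CPM, against 94.6 and 71.9 CPM. In these 3 genes the ZKSCAN3 libraries lay without overlap above WT and the M1BP RNAi + ZKSCAN3 libraries without overlap below M1BP RNAi. Among all genes that lay without overlap above WT in ZKSCAN3, 446 of 1791 (24.9%) had a positive fold change in the M1BP RNAi background, where 50.9% of all genes did. Of those below WT, 793 of 2593 (30.6%) had a negative one there, where 49.1% of all genes did.

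Other named genes differed in 1 direction in both backgrounds. Of the 12 lower genes with the smallest p-values 9 of 11 with a value in M1BP RNAi were lower there too, and of the 12 higher ones 5 of 10 were higher there too. CG5853 had 5.83 and 4.92 CPM in M1BP RNAi + ZKSCAN3, against 33.9 and 24.7 CPM in M1BP RNAi, so each of the 4 ZKSCAN3-carrying libraries lay below each of the 4 others. Averaged over both backgrounds its log2 difference was −1.72, with an FDR of 0.0315 by edgeR. GstD9 had 165 and 183 CPM in M1BP RNAi + ZKSCAN3, against 25.3 and 27.5 CPM in M1BP RNAi, and an average difference of 1.76 at an FDR of 0.0414 by edgeR. Pino had 119 and 125 CPM in M1BP RNAi + ZKSCAN3, against 83 and 68.1 CPM in M1BP RNAi, CRMP 20.3 and 11.7 CPM, against 4.93 and 5.28 CPM, and CG33120 59.3 and 52.2 CPM, against 93.5 and 96.8 CPM, with no overlap between genotypes in any of the 3. At FDR 0.05 edgeR called 8 of 11723 genes (0.0682%) for the average effect, CG5853 and GstD9 among them. It called 0 with a replicate block and 0 when ZKSCAN3 replicate 1, either WT replicate or either M1BP RNAi replicate was left out, so these calls were lost there, 1 and 16 when M1BP RNAi + ZKSCAN3 replicate 2 or 1 was left out, and 30 without ZKSCAN3 replicate 2. The other 6, named after their values were seen, were BaraA1, CG42362, CG42363, CG4991, dnr1 and Drsl5, whose difference came mostly from M1BP RNAi: CG42362 and CG42363, which have identical counts, had 3.69 and 4.40 CPM in ZKSCAN3, against 5.14 and 5.89 CPM in WT, and 15 and 12.6 CPM in M1BP RNAi + ZKSCAN3, against 102 and 99.7 CPM in M1BP RNAi. Drsl5, of the Drosomycin family, had 0.460 and 0.404 CPM in ZKSCAN3, against 0.531 and 0.471 CPM in WT, and 110.2 and 172 CPM in M1BP RNAi + ZKSCAN3, against 3.04 and 2.86 CPM in M1BP RNAi. The difference between both ZKSCAN3 effects, the interaction, passed FDR 0.05 in edgeR for Hsp26, Drsl5 and PolZ2 (3 of 11723 genes, 0.0256%). These calls were lost too with a replicate block and without ZKSCAN3 replicate 1, either WT replicate or M1BP RNAi replicate 1 (0 calls each), while 1 and 92 genes passed without M1BP RNAi + ZKSCAN3 replicate 2 or 1, 12 without ZKSCAN3 replicate 2 and 199 without M1BP RNAi replicate 2. PolZ2, an exception to the naming rule, had 4.17 and 4.13 CPM in ZKSCAN3, against 2.95 and 3.05 CPM in WT, and 7.93 and 8.47 CPM in M1BP RNAi + ZKSCAN3, against 29.6 and 31.7 CPM in M1BP RNAi.

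**Figure D4:**
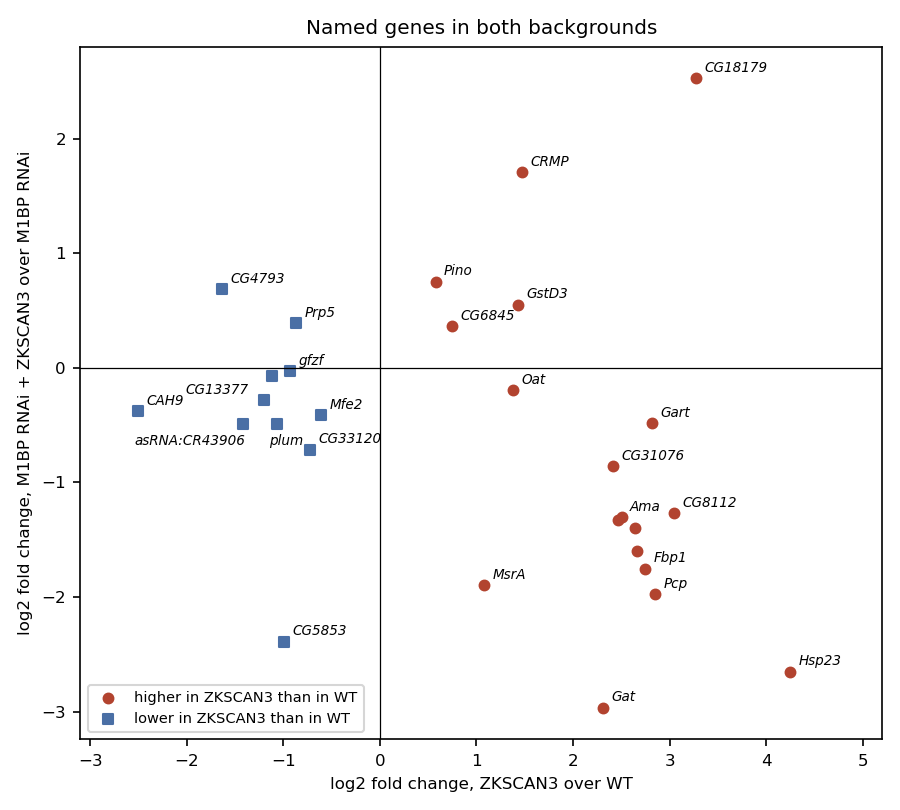
Each point is 1 gene named among the strongest in ZKSCAN3 against WT, with its log2 fold change there on the horizontal axis and that of M1BP RNAi + ZKSCAN3 against M1BP RNAi on the vertical axis. Red circles mark genes higher in ZKSCAN3 than in WT and blue squares genes lower, and CG34282 lies beyond the horizontal range. The higher genes lie mostly below 0 on the vertical axis, while CG5853 and CG33120 are below 0 and Pino, CRMP and GstD3 above 0 on both axes.

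Binding of HA::ZKSCAN3 had been measured in S2 cells, an embryonic cell line, and gave 8991 peaks, beside 8745 for its relative ZKSCAN4. Of the tested genes, 7432 had a ZKSCAN3 peak within 500 bases of the start, and their median log2 fold change in ZKSCAN3 fat bodies was −0.06. It was −0.07 for the 2967 promoters with a ZKSCAN3 peak only and −0.05 for the 4465 with peaks of both factors. The 365 genes with only a ZKSCAN4 peak had a median of −0.01 and the 3875 with neither a median of 0.23, but these last had a median level of 0.56 CPM, and for the 887 of them with a mean of at least 5 CPM the median was −0.05, against −0.07 for the 5024 with a ZKSCAN3 peak at that level. Motif 1 was held by 12.5% of the promoters with a ZKSCAN3 peak only, by 10.1% with both, by 2.19% with ZKSCAN4 only and by 0.439% with neither, and the 821 promoters with both a ZKSCAN3 peak and Motif 1 had a median of −0.05. Of the genes that DESeq2 called, 9 of the 22 higher ones and 0 of the 9 lower ones had a ZKSCAN3 peak, where 63.7% of tested promoters had one. Of these 9 lower genes 8 were among the genes tested by edgeR. They include Gr64d and Gr64e, overlapping genes of 1 cluster, so they are not all separate loci. Peak scores, whose scale the deposited files do not define, were 177 at Atg8a, 153 at CG5853, 138 at Hsp23, 70.8 at CG6845 and 49.2 at Hsp26. A peak in S2 cells does not say whether the factor was bound in the fat body.

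**Figure D5:**
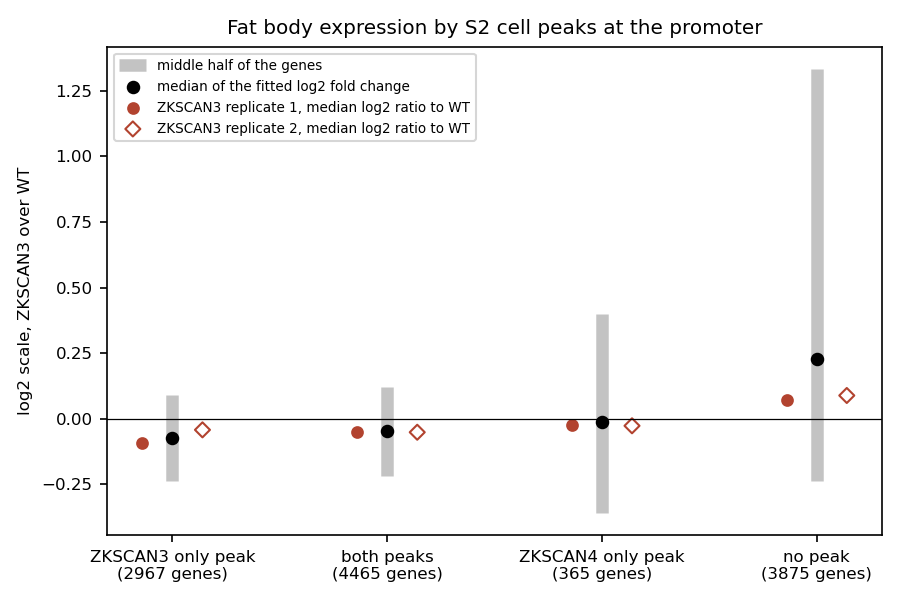
Log2 fold change (ZKSCAN3 over WT, edgeR) by the peaks found in S2 cells at the promoter, with the median (black), the middle 50% of the genes of each class (grey bar) and, in red, the median log2 ratio of each ZKSCAN3 library to the WT mean. Every class with a peak has a median between −0.07 and −0.01, and the class without a peak is wider and lies at 0.23.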

How the data were processed

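Per the labels and the study's methods, RNA from 10 pooled fat bodies per sample was sequenced, aligned uniquely with Subread to dm6 and counted per gene with featureCounts. The deposited counts are raw, used no strand, counted each mate singly, and counted a read over several genes for each of them. The deposited ChIP-seq peak score comes from the authors' MACS2 calling, with 1 merged list per factor. The authors' own fold changes and adjusted p-values were deposited too and were not used.

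The main test was edgeR's quasi-likelihood test (edgeR 4.0.16, R 4.3.3) on genes kept by filterByExpr, scaled with TMM, with all 8 male libraries in the fit, the Benjamini-Hochberg FDR and the study's threshold of 0.001, and DESeq2 1.42.0 was the alternative. M1BP RNAi + ZKSCAN3 against M1BP RNAi and the females were fitted apart. The self-test on simulated counts is not quoted. At 3 counts the floor was 0.0530 and 0.0576 CPM in ZKSCAN3, against 0.0590 and 0.0487 CPM in WT, for counting error only. Of 17494 gene IDs 17358 matched a symbol.

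Named genes were M1BP, w, RpL32 and Act5C, the 12 higher and 12 lower genes with the smallest unadjusted p among those without overlap and with a mean of at least 5 CPM in the higher group, up to 12 each way of those DESeq2 called with a mean of at least 1 CPM, up to 4 per gene list, and the 8 with the widest gap between the ZKSCAN3 libraries at a mean of at least 10 CPM. Neighbours, counts of 8 or fewer and the purine genes were named after their values were seen. Members and lists were chosen with earlier results of these data known. Alternatives were DESeq2 with 8 or 4 libraries, DESeq2 size factors, edgeR with 4 libraries, all genes with at least 1 count, FDR 0.05, a replicate block, leaving out each library, and other promoter widths and peak filters.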

Additional observations from a re-analysis of the deposited data

Results flagged for a closer look

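In 8 of the 41 named genes examined the values with ZKSCAN3 went in opposite directions in the M1BP RNAi background and the normal one. In each, both ZKSCAN3 libraries lay on the same side of both WT libraries, and the M1BP RNAi + ZKSCAN3 libraries on the opposite side of the M1BP RNAi libraries. The share of all genes that meet this rule is not given here. Opposite directions were common: of all genes above WT without overlap only 24.9% had a positive fold change in M1BP RNAi. Of those below WT only 30.6% had a negative one there. Many of the named genes had been picked by their ZKSCAN3 and WT values. The interaction, the log2 fold change with M1BP RNAi minus that without, was −3.85 for Hsp26, −5.33 for Gat, −3.03 for MsrA, −4.54 for Fbp1, −4.87 for Pcp and −4.09 for meep, all higher in ZKSCAN3 than in WT. It was 2.26 for CG4793 and 1.19 for Prp5, both lower in ZKSCAN3. By edgeR's test of the interaction the FDR was 0.0292 for Hsp26, a call lost with a replicate block and without ZKSCAN3 replicate 1, either WT replicate or M1BP RNAi replicate 1, and 0.0996 to 0.284 for the others, so for those 7 genes the difference failed the correction. Pcp, a pupal cuticle protein gene, lies inside Gart on the opposite strand and had 7.55 and 3.31 CPM in ZKSCAN3, against 0.492 and 1.01 CPM in WT. meep had 18.2 and 6.01 CPM in ZKSCAN3, against 1.97 and 1.92 CPM in WT, and 6.57 and 2.17 CPM in M1BP RNAi + ZKSCAN3, against 12.9 and 10.8 CPM in M1BP RNAi. Fbp1 in M1BP RNAi + ZKSCAN3 rests on libraries of 16918 and 385 CPM that differed from each other more than any other pair of that gene.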

How the results depend on the processing

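In ZKSCAN3 against WT edgeR called 0 genes at FDR 0.001 and 0 at FDR 0.05, and also 0 at FDR 0.001 with DESeq2 size factors, with only the 4 libraries, with all genes of at least 1 count and with each library left out. DESeq2 called 8 genes with all 8 libraries, 31 with only the 4 and 156 with those at FDR 0.05, and with those 4 and 1 library left out 54, 791, 25 and 11 (ZKSCAN3 replicates 1 and 2, then WT replicates 1 and 2). The one-library-out DESeq2 fits, the FDR 0.05 with 4 libraries and the CPM minimum were added after seeing the data. Of the 31 genes, 15 remained without ZKSCAN3 replicate 1, 25 without ZKSCAN3 replicate 2, 7 or 9 when WT replicate 1 or WT replicate 2 was left out, and 7 were also called with all 8 libraries. For M1BP RNAi + ZKSCAN3 against M1BP RNAi DESeq2 called 173 genes and edgeR 0. The average effect went to 8 genes at FDR 0.05 and 76 with DESeq2, and the interaction to 3 and 91. The edgeR counts at FDR 0.001 were 0 in each of these contrasts, so leaving out libraries could only add to them and says nothing of stability there. At FDR 0.05, with the alternatives added after seeing the data, edgeR called 0 to 23 genes in ZKSCAN3 against WT with each library left out, 0 to 30 for the average effect and 0 to 199 for the interaction. A replicate block took the average effect and the interaction to 0, DESeq2 with 8 libraries gave 34, 207 and 752 for the 3 contrasts and with 4 libraries 156, edgeR with DESeq2 size factors gave 6 for the interaction, and all genes of at least 1 count gave 17. The replicate numbers were not taken to pair the libraries, since in their deviations from the group means same-numbered ZKSCAN3 and WT libraries correlated at −0.084 and the 6 pairs of groups ranged over −0.22 (ZKSCAN3 and M1BP RNAi) to 0.45 (WT and M1BP RNAi), 4 of them above 0.1. In ZKSCAN3 against WT a replicate block gave 0 calls and 667 genes at an unadjusted p under 0.05. The median fold change of genes without a peak at the promoter was 0.25 with promoters of 1000 bases to each side, 0.052 with only peaks above the median score, 0.049 with the peak centre in the promoter and −0.054 with a mean of at least 5 CPM. Act5C was at 0.018 with DESeq2 size factors, 0.017 and 0.030 with DESeq2 on 8 and 4 libraries and 0.013 with edgeR on 4 libraries. With each library left out some genes near 0 changed sign: Act5C ranged over −0.12 to 0.089, RpL32 over −0.20 to 0.065, Atg2 over −0.097 to 0.25, Atg6 over −0.15 to 0.0060, Atg8a over −0.21 to 0.38 and CG4991 over −0.67 to 0.042. CG17826 ranged over −3.51 to 15.8 and CG7017 over −0.27 to 11.9, both turned by leaving out ZKSCAN3 replicate 1. The cause was not tested.

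With 58792587 to 75828876 counts per library, the spread between 2 libraries per group set the width of the intervals more than counting did. Only fly genes were counted, binding was measured in another cell type, and the score of a peak has no stated scale.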

Other observations

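Several genes of de novo purine synthesis lay above WT in both ZKSCAN3 libraries. They were picked after their values were seen and not from a list fixed beforehand, and no test was made of the pathway. Prat2, which makes the first committed step, had 331 and 249.7 CPM in ZKSCAN3, against 148 and 137 CPM in WT. Gart, a protein that carries several of the following steps, had 609.8 and 232 CPM in ZKSCAN3, against 51.6 and 68 CPM in WT, and Pfas had 155 and 109 CPM, against 75.3 and 75.6 CPM. Paics had 1123 and 560.2 CPM in ZKSCAN3, against 411 and 393 CPM in WT, and CG11089, the fly relative of the enzyme ATIC that closes the ring, had 1686 and 875 CPM, against 292 and 271 CPM. ras, the IMP dehydrogenase of guanine nucleotide synthesis, had 103 and 49.4 CPM in ZKSCAN3, against 41.3 and 39.7 CPM in WT. In all 6 of these genes ZKSCAN3 lay above WT without overlap, as did 19.2% of all genes, and replicate 1 was the higher ZKSCAN3 library. Gart and CG11089 were called by DESeq2 with the 4 libraries, and edgeR gave each of the 6 an FDR of 0.932. Among the genes given here the exception was Prat, the other gene for the first step, with 3.53 and 6.48 CPM in ZKSCAN3, against 6.71 and 6.92 CPM in WT. Values of further genes of the pathway, AdSL among them, are not given here, so the passage does not cover the whole pathway. Between L3W and L3F females the 6 genes differed by 1.82 (Prat2) to 4.52 (Gart) log2 units, and Prat by −1.15. In M1BP RNAi + ZKSCAN3 against M1BP RNAi, Gart had 905 and 163 CPM, against 1085 and 456 CPM, and CG11089 had 1722 and 185 CPM, against 2424 and 1507 CPM.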
